A study of Drosophila melanogaster with 12 samples.

Results

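Transcripts of 5 genes that govern the identity and differentiation of female germ cells in Drosophila melanogaster were followed through the end of oogenesis and egg activation. They were ovo, otu (ovarian tumor), Sxl (Sex-lethal), bam (bag of marbles) and sqd (squid), chosen by name, and they made up 5 of the 5421 records of the table. The study measured total RNA after removal of ribosomal RNA in 12 libraries, 2 for each of 6 groups. The mutant groups carried wispKG5287, an allele that the labels call null, and the control groups were w1118. The gene wisp encodes a cytoplasmic poly(A) polymerase of the female germ line. Each genotype was sampled as immature oocytes of oogenesis stages 9 to 10, as mature oocytes of stage 14 and as activated, unfertilized eggs collected over 0 to 1 h at 25 °C. Oocytes were dissected by hand from females of 3 or 4 days. The labels' account of the eggs names w1118 virgins with sterile mates (sons of tud1 mothers), and it gives no separate account of the mutant eggs. The replicates are called biological, and neither the number of females behind a library nor pooling is given.

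In the Drosophila ovary a stem cell daughter becomes a cystoblast, divides into a cyst of connected cells, and leaves a single oocyte fed by its nurse cells. The transcription factor Ovo acts in the female germ line and drives otu, whose product is a deubiquitinase with an RNA-binding role needed for cyst formation and Sxl splicing. Sxl, an RNA-binding protein and the master switch of female sex, keeps its own mRNA in the female form by splicing and helps germ cells leave the stem cell state. Bam acts with Bgcn and other partners at the cystoblast step to repress the translation of stem cell factors such as nos. Squid is an hnRNP protein that binds the mRNA of gurken, the ligand that sets the axes of the egg, and acts with Otu and Hrb27C on its localization.

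On the dm6 assembly, ovo lay at X:5048273-5070929 on the plus strand, with 5 annotated transcripts. The other X-linked genes were on the minus strand, otu at X:8485008-8489535 with 5 transcripts and Sxl at X:7074550-7098053 with 25. The autosomal genes bam and sqd also lay on the minus strand, at 3R:25243039-25245109 with 1 transcript and at 3R:13634862-13646304 with 5. Each gene had 1 record, so splice forms, including the sex-specific forms of Sxl, cannot be told apart in these values. The library kit does not mark strand. Of 1946 exonic bases of bam, 224 overlap CG11854 on the opposite strand, a gene not among the records analysed, and reads from it cannot be told apart from those of bam there. Of 3420 exonic bases of otu, 162 overlap CG33181 on the opposite strand, whose values ranged from 623 to 1439 in mutant libraries and from 528 to 1733 in wild type libraries.

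The values are the authors' normalised read counts, and each library summed to between 11081267 and 14089899. Their method of normalisation and the sequencing depth are not given in the sources used here. Every record reached at least 100 in all 12 libraries. Germline and oocyte markers were all present (10 of 10), and so were 14 of 14 nurse cell and ring canal markers. Of 30 follicle cell markers only fax was in the table, and yolk protein, vitelline membrane and chorion genes were not among the records analysed. In mutant libraries wisp stood at 718 and 249 in immature oocytes, 249 and 259 in mature oocytes and 189 and 397 in activated eggs, against 10195 and 3623, 7811 and 9722, and 7301 and 17226 in wild type. Its deficit carried an adjusted p of 0.00294 in mature oocytes and 0.00222 in activated eggs (limma across all records), and 0.0676 in immature oocytes. Immature replicate 2 of both genotypes stood apart from immature replicate 1. Log2 values correlated at 0.977 between the replicate 2 libraries of mutant and wild type, but at 0.858 between mutant replicates and 0.828 between wild type replicates. Against the wild type mature libraries, wild type immature replicate 1 reached correlations of 0.973 and 0.967. Mutant immature replicate 1 reached 0.918 and 0.912 against the mutant mature libraries.

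Per kilobase of the longest transcript and averaged over the 12 libraries, otu (1845) and sqd (1819) had the highest levels, followed by ovo (715), Sxl (375) and bam (307). Per kilobase, otu exceeded 89 to 94 percent of all records in each group and ovo 68 to 78 percent. The per-kilobase level of bam exceeded 8 percent of records in wild type immature oocytes and 59 percent in mutant mature oocytes. Between the lowest and highest library, ovo varied 2.06-fold and otu 2.0-fold, bam 3.64-fold, sqd 17.6-fold and Sxl 21.4-fold. A smaller spread was found in 32.7% of records for ovo and 98.4% for Sxl.

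**Figure D1:**
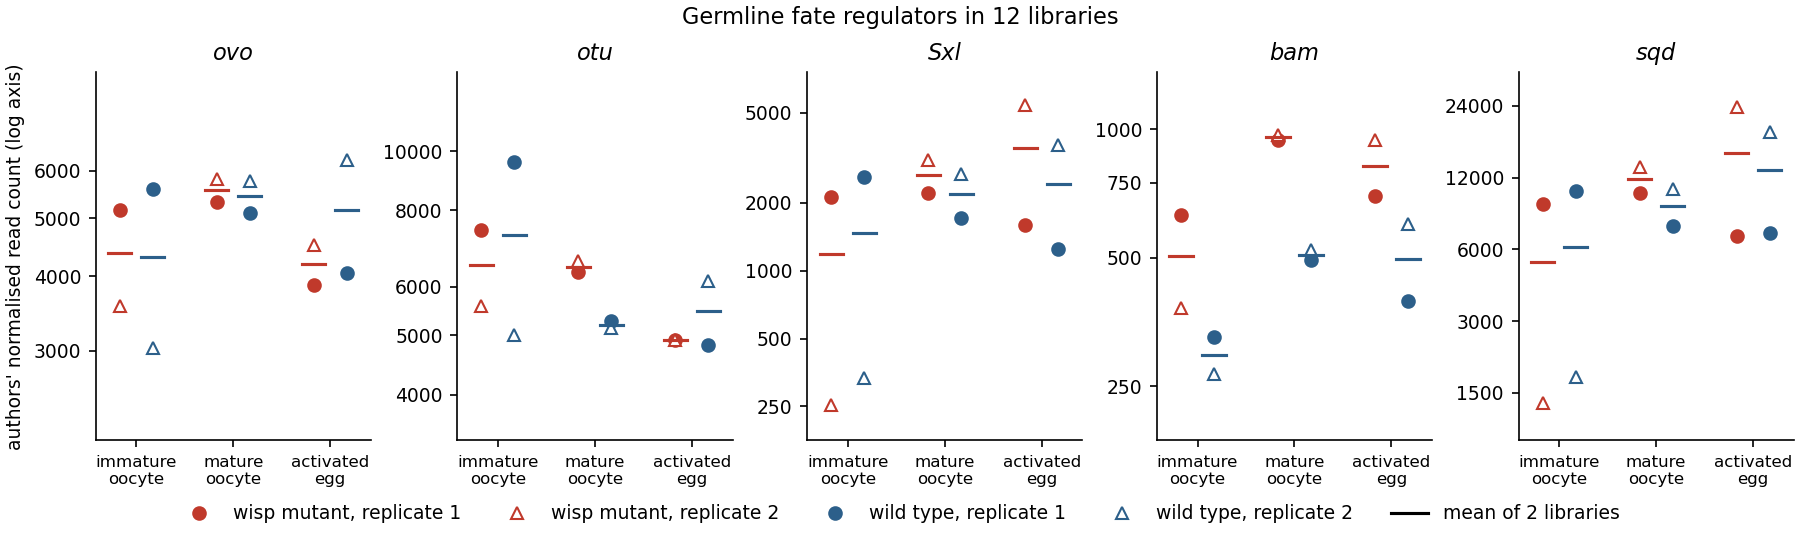
Authors' normalised read counts (log axis) of the 5 genes by stage, with mutant libraries in red left of wild type libraries in blue, filled circles for replicate 1, open triangles for replicate 2 and bars for the mean of 2 libraries. Both mutant libraries lie above both wild type libraries for bam at each stage, and immature replicate 2 is far below replicate 1 for Sxl and sqd in both genotypes.

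Transcripts of bam were more abundant in the mutant at every stage. In immature oocytes they stood at 628 and 381 in mutant libraries, against 326 and 267 in wild type libraries. In mature oocytes they reached 943 and 971 in the mutant, against 494 and 520 in wild type. In activated eggs the mutant libraries had 699 and 943 and the wild type libraries 395 and 600. The genotypes did not overlap at any stage, a pattern shown by 395 of all records (7.29%). Stage by stage, the mutant lay above wild type without overlap in 15.9% of records in immature oocytes, 30.2% in mature oocytes and 21.4% in activated eggs. Libraries of the same stage and replicate number had ratios of mutant over wild type of 1.43 to 1.93. Without overlap, 6 of 6 such pairs must be higher in the mutant, so that count adds no support. Of all records, 720 (13.3%) were higher in the mutant in all 6 pairs. Every ratio was at or above the lowest of bam in 35 records (0.646%), but bam itself set that cutoff. That share therefore does not measure how rare the bam pattern is.

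Single-stage differences of bam missed the threshold of an adjusted p under 0.05 in limma, a linear model fitted to log2(value + 1) over all 5421 records and 12 libraries. The log2 fold change of mutant over wild type was 0.73 in immature oocytes (95% interval 0.07 to 1.39, adjusted p = 0.705). It was 0.92 in mature oocytes (0.26 to 1.57, adjusted p = 0.0929) and 0.74 in activated eggs (0.08 to 1.39, adjusted p = 0.0947). Same-numbered libraries of the genotypes deviated together within each stage, and with the replicate number of each stage as a block the adjusted p of bam was 0.0102, 0.000252 and 0.00102 in that stage order. In that fit 4.93%, 24.0% and 53.7% of all records passed. In activated eggs bam also passed under TMM scaling (adjusted p = 0.0398, with 17.5% of records called) and under quantile normalisation (adjusted p = 0.0434, with 9.17% called). It passed as well with a replicate block over the mature and activated libraries only (adjusted p = 0.00956, with 42.3% called). With the length trend removed the activated egg difference was 0.64 (adjusted p = 0.199). With single libraries left out it ranged from 0.44, without wild type replicate 1, to 1.04, without wild type replicate 2, and did not pass. In immature oocytes it ranged from 0.37, without mutant replicate 1, to 1.09, without mutant replicate 2, and did not pass. The mean genotype difference over the 3 stages, a contrast added after the values had been seen, was 0.79 (SE 0.17, interval 0.41 to 1.17), a 1.73-fold excess in the mutant with an adjusted p of 0.00943. In that contrast 27.8% of all records passed and 9.37% of all records were higher in the mutant, and bam was the single gene of the 5 that passed. The call held in each of 22 alternatives, with adjusted p from 1.22e-06 to 0.0333.

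The summed level of the nurse cell and ring canal markers also separated the genotypes, at 82716 to 117382 in mutant libraries and 63598 to 79734 in wild type libraries. Within that sum dhd alone held 49508 to 64294 in the mutant and 30533 to 45957 in wild type. By gene, the median log2 difference of the 14 markers was -0.13 in immature oocytes, 0.19 in mature oocytes and -0.25 in activated eggs. Over all records it was 0.0, -0.03 and -0.16. In activated eggs 1 of 14 passed as higher (dhd) and 5 of 14 as lower, against 7.3% and 17.7% of all records. The sum therefore does not describe the markers as a set. The germline and oocyte markers summed to 63899 to 72701 in the mutant and 52461 to 62594 in wild type. Members of that sum went both ways in activated eggs. The log2 difference was 0.56 for osk and 0.70 for nos, but -0.07 for vas, -0.43 for grk and -0.77 for stau. The part of cell composition in the bam difference was not tested. In bulk samples fewer cells of a type and less RNA per cell cannot be told apart. The size of the bam difference was not shown to vary with stage. The maturation change differed between genotypes by 0.19 (interval -0.74 to 1.12, adjusted p = 0.999) and the activation change by -0.18 (-1.11 to 0.75, adjusted p = 0.918).

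**Figure D2:**
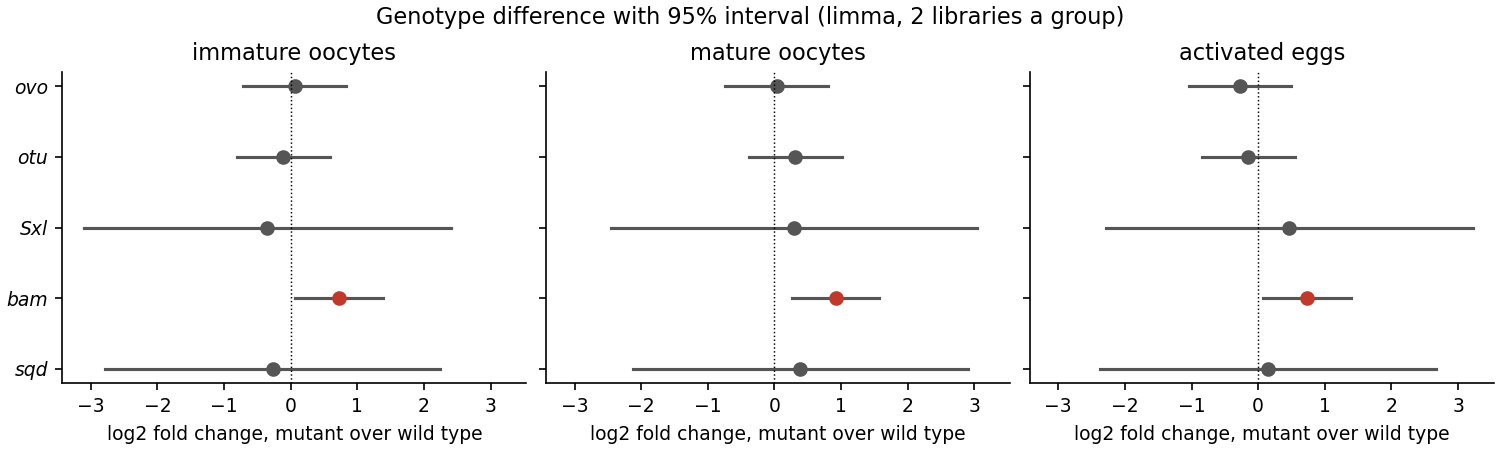
Log2 fold change of mutant over wild type from limma (horizontal axis) with its 95% interval for the 5 genes at each stage, 2 libraries a group, and bam in red. The bam intervals lie above 0 at the 3 stages before adjustment (0.07 to 1.39, 0.26 to 1.57 and 0.08 to 1.39), while those of Sxl and sqd span more than 4 log2 units.

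By mean level, bam in mutant mature oocytes (957) and mutant activated eggs (821) stood above the other 4 groups, and these top groups overlapped one another. Next came wild type mature oocytes (507), mutant immature oocytes (504) and wild type activated eggs (497), which overlapped, and wild type immature oocytes (296) were below all of them. Mature exceeded immature oocytes without overlap in both genotypes, as in 32.8% of records in the mutant and 25.9% in wild type. The log2 change with maturation was 0.97 in the mutant (adjusted p = 0.0611) and 0.78 in wild type (adjusted p = 0.456). Without mutant immature replicate 2 the mutant change was 0.61, and without mutant immature replicate 1 it was 1.33. Under TMM scaling the mutant change passed the threshold in limma at 0.94 (adjusted p = 0.049, with 10.6% of records called).

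The group means of ovo lay within a narrow range, from 4185 to 5565. In mutant libraries ovo stood at 5164 and 3564 in immature oocytes, 5324 and 5806 in mature oocytes and 3867 and 4503 in activated eggs. In wild type it stood at 5587 and 3037, 5104 and 5767, and 4044 and 6261 at the same stages. Ordered by mean level, from mutant mature oocytes (5565) down to mutant activated eggs (4185), each group overlapped the next. The genotype difference was 0.06 in immature oocytes (interval -0.71 to 0.83), 0.04 in mature oocytes (-0.74 to 0.81) and -0.27 in activated eggs (-1.04 to 0.5), and adjusted p was 0.615 or higher. These intervals leave room for changes of over 1.5-fold in either direction at the first 2 stages. In mutant flies ovo was lower without overlap in activated eggs than in mature oocytes (log2 -0.41, adjusted p = 0.809), as were 24.9% of records, and higher without overlap in mature than in immature oocytes (0.37, adjusted p = 0.438), as were 32.8% of records.

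The Ovo target otu differed by at most 1.28-fold between replicates of mature oocytes and activated eggs, and by 1.33-fold in mutant and 1.92-fold in wild type immature oocytes. Its mutant libraries had 7425 and 5588 in immature oocytes, 6337 and 6607 in mature oocytes and 4909 and 4911 in activated eggs. Its wild type libraries had 9610 and 5003, 5269 and 5137, and 4813 and 6139 at those stages. In mature oocytes both mutant libraries exceeded both wild type libraries, by 0.31 on the log2 scale (interval -0.38 to 1.01, adjusted p = 0.691). Such separation in the mutant's favour was found in 30.2% of records, as given above for bam. In a fit limited to the 4 mature libraries, which called 41.9% of records, the adjusted p of otu was 0.0306. The genotype difference was -0.11 in immature oocytes (adjusted p = 1) and -0.15 in activated eggs (adjusted p = 0.78). Within the mutant, otu was lower in activated eggs than in mature oocytes without overlap, by -0.40 (adjusted p = 0.797), as were 24.9% of records.

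The 3 highest group means of otu were in wild type immature oocytes (7306), mutant immature oocytes (6506) and mutant mature oocytes (6472), and neighbouring groups among them overlapped. The libraries of mutant mature oocytes lay above those of wild type activated eggs (mean 5476), the next group, which overlapped wild type mature oocytes (5203). Mutant activated eggs (4910) came last and lay below both wild type mature libraries.

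Sxl and sqd varied most, and in nearly the same way. In mutant libraries Sxl stood at 2117 and 253 in immature oocytes, 2207 and 3079 in mature oocytes and 1586 and 5404 in activated eggs. In wild type it stood at 2598 and 335, 1705 and 2668, and 1251 and 3600. The sqd record had 9291 and 1353, 10354 and 13346, and 6821 and 23744 in the mutant at the 3 stages, against 10538 and 1746, 7540 and 10720, and 7034 and 18684 in wild type. For both genes the lowest libraries were immature replicate 2 of either genotype and the highest were activated replicate 2. For each 100 units of sqd there were 17.8 to 24.9 units of Sxl (median 22.7), a 1.4-fold range across libraries in which either gene ranged over 17-fold. Their log2 values correlated at 0.994 (Pearson, 12 libraries), as a description. The pattern was shared widely, since 497 records correlated with Sxl above 0.95 and 556 with sqd.

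**Figure D3:**
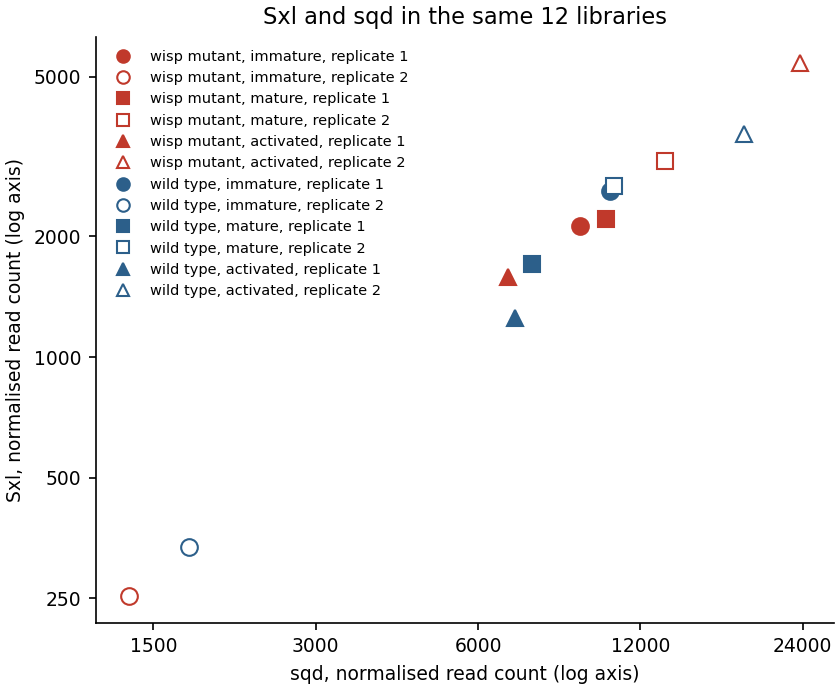
Normalised read count of Sxl (vertical, log axis) against that of sqd (horizontal, log axis) in each of 12 libraries, with mutant in red, wild type in blue, a shape for each stage, filled symbols for replicate 1 and open symbols for replicate 2. The points fall near a line of constant ratio, from immature replicate 2 (253 and 1353 in the mutant, 335 and 1746 in wild type) to activated replicate 2 (5404 and 23744 in the mutant, 3600 and 18684 in wild type).

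The spread of Sxl and sqd lay mainly between replicates. Within immature oocytes, replicate 2 was below replicate 1 by a log2 ratio of -3.07 in the mutant and -2.95 in wild type for Sxl. For sqd the ratio was -2.78 in the mutant and -2.59 in wild type, and over all records the median ratio was 0.03 in both genotypes. A fall of at least 4-fold between these libraries was found in 244 records in the mutant and 345 in wild type. The same ratio was milder for ovo (-0.54 in the mutant and -0.88 in wild type), otu (-0.41 and -0.94) and bam (-0.72 and -0.29). In activated eggs the difference ran the other way, with replicate 2 above replicate 1 by 1.77 in the mutant and 1.52 in wild type for Sxl. Of 30 listed follicle cell markers only fax was in the table, and it moved alike. It had 1568 and 281 in mutant immature oocytes, 3142 and 3790 in mutant mature oocytes and 1898 and 7975 in mutant activated eggs. In wild type fax stood at 2655 and 432, 2591 and 3761, and 2283 and 6554. Its highest value in either genotype was in activated eggs and its lowest in immature oocytes, and follicle cell content cannot be read from this gene alone. The part of other cells or of collection in these differences was not tested.

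**Figure D4:**
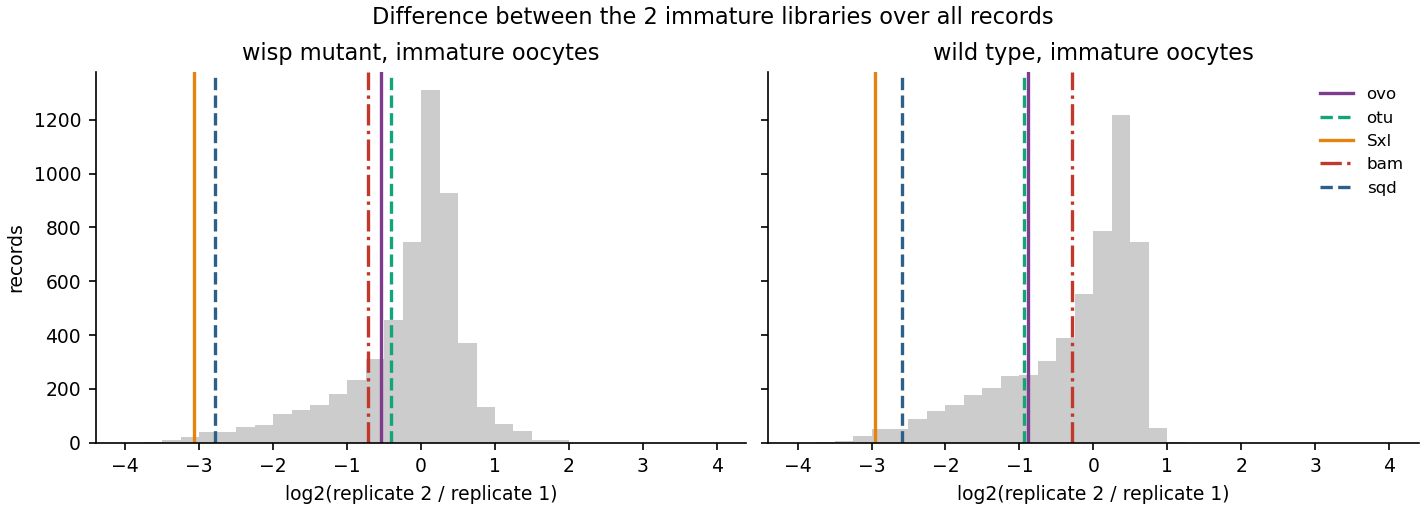
Number of records (vertical) by log2 ratio of replicate 2 over replicate 1 of immature oocytes (horizontal), in the mutant on the left and wild type on the right, with a line for each of the 5 genes. The lines of Sxl (-3.07 and -2.95) and sqd (-2.78 and -2.59) lie in the low tail, where 244 mutant and 345 wild type records fall at least 4-fold.

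With this spread the genotype difference of Sxl was -0.35 in immature oocytes (interval -3.11 to 2.4), 0.29 in mature oocytes (-2.46 to 3.04) and 0.46 in activated eggs (-2.29 to 3.22). Adjusted p was 0.826 or higher at each stage. With the within-stage replicate block, Sxl passed the threshold in activated eggs (adjusted p = 0.0381), where 53.7% of all records did. For sqd the difference was -0.27 (-2.79 to 2.24), 0.39 (-2.13 to 2.9) and 0.15 (-2.37 to 2.67) at the same stages, and adjusted p was 0.941 or higher. Changes of 4-fold in either direction lie within all 6 intervals.

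With maturation Sxl was higher without overlap in the mutant, by 1.83 (interval -0.92 to 4.59, adjusted p = 0.311), as were 32.8% of records. It was higher by 1.19 in wild type, where the libraries overlapped (-1.56 to 3.94, adjusted p = 0.639). The change of sqd was 1.73 in the mutant (adjusted p = 0.297) and 1.07 in wild type (adjusted p = 0.642). The within-stage block takes the replicate deviation out of the error of a comparison between stages. It called both genes, and 53.3% of all records in the mutant and 28.3% in wild type, and nothing is read from those calls. The size of the changes depended on which immature replicate was kept. Without immature replicate 2 of both genotypes the mutant changes were 0.30 for Sxl and 0.34 for sqd. The wild type changes were then -0.28 for Sxl and -0.23 for sqd. Without immature replicate 1 of both genotypes the mutant changes were 3.36 for Sxl and 3.12 for sqd. The wild type changes were then 2.67 for Sxl and 2.36 for sqd. By mean level, Sxl ranged over the groups from 3495 in mutant activated eggs to 1185 in mutant immature oocytes and sqd from 15283 to 5322 in the same groups, and every neighbouring pair of groups overlapped.

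Across the 9 planned comparisons, limma called 0 of the 5 genes at an adjusted p under 0.05. At an unadjusted p under 0.05 it was 1 of 5, always bam, in the 3 genotype comparisons and in both maturation comparisons, and 0 of 5 in the rest. Over all records, the share called between genotypes was 0.111% in immature oocytes, 10.1% in mature oocytes and 25.0% in activated eggs. With maturation it was 13.1% in the mutant and 0.0% in wild type, and with activation 0.0184% in the mutant and 0.0553% in wild type. The genotype difference in the change passed in 1.03% of records for maturation and 0.0% for activation.

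Of the other genes of Sxl splicing and germline sex determination, 21 of 26 were in the table. In mature oocytes 0 of 21 were higher and 2 of 21 lower in the mutant, against 0.683% and 9.37% of all records. In activated eggs 2 of 21 were higher and 5 of 21 lower, against 7.3% and 17.7% of all records. With the within-stage replicate block 4 of 21 were lower in mature oocytes and 1 of 21 in immature oocytes, and in activated eggs 5 of 21 were higher and 7 of 21 lower. That fit called 4.93% of all records in immature oocytes, 24.0% in mature oocytes and 53.7% in activated eggs, in either direction. Their median log2 difference in activated eggs was -0.34, against -0.16 over all records. Ime4, the catalytic subunit of the m6A methyltransferase that acts in Sxl splicing, had 245 and 266 in mutant mature oocytes, against 487 and 503 in wild type. In activated eggs it had 250 and 230 in the mutant, against 470 and 478 in wild type. It was lower by log2 -0.95 (SE 0.12, adjusted p = 0.00252) in mature oocytes and -0.98 (SE 0.12, adjusted p = 0.00215) in activated eggs, and both calls held with each library left out. Its partner Mettl14 (CG7818) also fell at both stages, by log2 -0.90 in mature oocytes (adjusted p = 0.0257) and -0.73 in activated eggs (adjusted p = 0.0331), but lost the call at both stages in 4 of 4 fits with a library left out.

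Virilizer (vir), a further subunit of that complex, stood at 287 and 158 in mutant activated eggs, against 1082 and 994 in wild type. Its log2 difference was -2.28 (SE 0.41, adjusted p = 0.00819). Flacc (CG7358), another member of the complex, fell by 1.10, and so did egg, an H3K9 methyltransferase of female germ cell identity, by 0.92. Other members of the complex did not pass in activated eggs, with log2 differences of -0.50 for nito (adjusted p = 0.133), -0.28 for fl(2)d (adjusted p = 0.857) and -0.09 for Hakai (adjusted p = 0.868). The higher genes were snf, an snRNP protein needed for Sxl splicing, with 1463 and 1888 in mutant eggs against 916 and 961 in wild type eggs (log2 0.82, adjusted p = 0.0379), and the gene of the heterochromatin protein HP1a (log2 1.01, adjusted p = 0.0393). Most activated egg calls of this list were lost without wild type activated replicate 2, which left a single wild type egg library. The share of all records called in that fit is not given, so the loss cannot be read as particular to these genes. During maturation in the mutant, vir (-1.58) and Ime4 (-0.67) fell and Phf7, a male germ line chromatin reader, rose by 0.76, in a comparison where 1.68% of all records rose and 11.4% fell. With libraries left out, the Phf7 call was lost in 6 of 6 fits, and the maturation calls of vir and Ime4 in 4 of 6 each. Phf7 averaged 1577 ± 254 in mature and 928 ± 114 in immature mutant oocytes, and 1741 ± 119 in mature and 1047 ± 173 in immature wild type oocytes (SD, n = 2 each).

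Among partners of bam in cystoblast differentiation and stem cell maintenance, 27 of 32 were in the table. None passed between genotypes in immature or mature oocytes (0 of 27 each), and in activated eggs 1 of 27 was higher and 4 of 27 lower in the mutant, against 7.3% and 17.7% of all records. In immature oocytes 0.111% of all records passed. With the within-stage block 3 of 27 were higher and 7 of 27 lower in activated eggs (53.7% of all records called), and 1 of 27 moved each way in mature oocytes (24.0% called). Their median difference in activated eggs was -0.21, against -0.16 over all records. The COP9 signalosome subunit CSN5, a partner of Bam, had 1408 and 1353 in mutant eggs, against 892 and 785 in wild type eggs (log2 0.72, adjusted p = 0.0273). The lower genes were fu, a kinase that limits the BMP response in the cystoblast (-1.28, adjusted p = 0.0146), stwl (-1.29), the deubiquitinase scny (-0.85) and Med, the co-Smad of BMP signalling (-0.81). All activated egg calls of this list were lost without wild type activated replicate 2, which left a single wild type egg library. The share of all records called in that fit is not given, so the loss cannot be read as particular to these genes. The CSN5 call was lost in 4 of 4 fits with a library left out. The gap junction gene zpg fell by 0.65 with maturation in the mutant (adjusted p = 0.0475), a call lost in 6 of 6 fits with libraries left out.

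Of the genes that act with Squid and Otu on gurken and other localized mRNAs, 25 of 27 were in the table. In mutant activated eggs 2 of 25 were higher and 2 of 25 lower, against 7.3% and 17.7% of all records. In immature and mature oocytes 0 of 25 were called, where 0.111% and 10.1% of all records were. With the within-stage block 4 of 25 were higher and 7 of 25 lower in activated eggs (53.7% of all records called), and 1 of 25 was higher and 2 of 25 lower in mature oocytes (24.0% called). Their median difference in activated eggs was -0.23, against -0.16 over all records. The splicing factor gene hfp (pUf68), which acts on otu pre-mRNA, had 1154 and 967 in mutant eggs, against 2028 and 2399 in wild type eggs (log2 -1.06, adjusted p = 0.00719). The hnRNP gene glo, whose product binds gurken and nos mRNA, had 1136 and 1305 in the mutant, against 2286 and 3339 in wild type (log2 -1.18, adjusted p = 0.0114). The higher genes were cni, needed for Gurken export (0.72, adjusted p = 0.0302), and osk, the organizer of the germ plasm (0.56, adjusted p = 0.0474). Under quantile normalisation the osk difference was -0.04. The cni and osk calls were lost in 4 of 4 fits each with a library left out. The gurken transcript itself did not pass (grk, log2 -0.43, adjusted p = 0.0866), nor did Hrb27C (-0.11, adjusted p = 0.948). All activated egg calls of this list were lost without wild type activated replicate 2, which left a single wild type egg library. The share of all records called in that fit is not given, so the loss cannot be read as particular to these genes.

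Of the nurse cell and ring canal markers, 1 of 14 was lower in mutant mature oocytes (mtm), against 9.37% of all records, and in activated eggs 1 of 14 was higher and 5 of 14 were lower, against 7.3% and 17.7%. The higher gene was dhd, a germ line thioredoxin, and the lower ones were kel, mtm, cher, hts and capu. With single libraries left out, the mature oocyte call of mtm and the activated egg call of capu were lost in 4 of 4 fits each. With the within-stage block 4 of 14 were higher and 6 of 14 lower in activated eggs (53.7% of all records called), 3 of 14 were lower in mature oocytes (24.0% called) and 1 of 14 in immature oocytes (4.93% called). All activated egg calls of these markers were lost without wild type activated replicate 2, which left a single wild type egg library. The share of all records called in that fit is not given, so the loss cannot be read as particular to the markers. With maturation in the mutant, qua rose by 0.88 and mtm fell by 1.22, and with libraries left out the calls were lost in 6 of 6 fits for qua and 3 of 6 for mtm. In immature oocytes 0 of 14 markers were called between genotypes, where 0.111% of all records were, so this count says nothing about cell composition.

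Transcript length moved with the genotype difference in activated eggs. Over the 675 records with the longest transcripts, 5092 to 27842 bases, the median log2 difference was -0.74, and this class held ovo, Sxl and sqd. It was 0.48 over the shortest class, -0.35 in the length class of otu and -0.03 in that of bam. In immature oocytes the median was -0.33 in the longest class and 0.20 in the shortest, and in mature oocytes -0.01 and -0.04. With the length trend removed, the activated egg difference was 0.27 for ovo and 0.08 for otu, a change of sign for both, and neither passed the threshold. In that fit the counts called in activated eggs were 0 higher and 3 lower of 21 genes of Sxl splicing. They were 0 higher and 1 lower of 27 of cystoblast differentiation, and 1 higher and 1 lower of 25 of gurken mRNA handling. Of 14 nurse cell markers 1 was higher and 2 were lower. The share of all records called in that fit is not given, so these counts are not read as a result about the lists.

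The genes with patterns most like each regulator over the 12 libraries were picked by Pearson correlation of log2 values, as a description. For ovo they were mam (0.963), pum (0.945) and mxt (0.944). For otu they were ttk (0.934), Nhe2 (0.921) and bbg (0.852), and no record exceeded 0.95. The closest to bam were Hap40 (CG8134, 0.962), CG7115 (0.952) and Spt (0.943), and only 2 records exceeded 0.95. For Sxl they were pcs (0.998), Amph (0.997) and Imp (0.997), and for sqd sn (0.999), Pi3K21B (0.999) and CBP (0.996). Among the regulators themselves, Sxl and sqd were close (0.994), and ovo correlated at 0.8 with Sxl and 0.789 with sqd. The other pairs reached at most 0.674 (bam with Sxl and with sqd). They included 0.53 between ovo and otu, 0.478 between ovo and bam, and -0.036 between otu and bam.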

How the data were processed

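The deposited table holds 1 value per record and library, a signal the authors named normalised read counts. The submitters' processing notes list STAR 2.4.2a, HTSeq, RSEM 1.2.25 and dm6. Per the labels' protocols, an equal amount of ERCC spike-in went into each sample, rRNA was removed with Ribo-Zero, and TruSeq RNA v2 libraries were made. The analysed records include 0 ERCC rows, so a shift shared by all transcripts may not show. Of 5422 records, 1 identical duplicate was removed. No step size turned the values into whole reads (best share 24.1% within a tolerance of 0.05, chance 10%), so depth is unknown and no counting interval is given. Since every value is at least 100, genes below that in any library are missing.

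Log2(value + 1) was fitted with limma 3.58.1 in R 4.3.3, with an intensity trend, 1 mean per group and no block (6 residual and 2.43 prior degrees of freedom). P-values were adjusted by Benjamini-Hochberg over 5421 records, and 9 contrasts were planned. With 2 libraries a group the error rests on pooling over groups. Mutant and wild type libraries with the same replicate number shared their deviation from the group mean (correlation 0.849 for immature oocytes, 0.483 for mature oocytes, 0.771 for activated eggs). The correlation was -0.938 to -0.31 between immature and other groups and 0.217 to 0.618 between mature and activated groups. An alternative fit with a within-stage block therefore treated genotypes as paired, while the main fit left them unpaired. A block over the mature and activated libraries was added after seeing the data. The pairing comes from these correlations, not from the labels. Alternatives were other pseudocounts, a mean of at least 500, TMM, quantile normalisation, blocks, removal of the length trend, only the libraries compared, and each library left out. The code was tested on simulated data.

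Gene models came from the dm6 annotation, and 5384 records matched RefSeq names. Named genes were the 5 members, wisp, list members called in a contrast, and the 3 nearest patterns per member. Other list genes (nito, fl(2)d, Hakai, grk and Hrb27C) were named after their values were seen. Members and lists were chosen with earlier results of these data known.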

Additional observations from a re-analysis of the deposited data

How the results depend on the processing

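Of the log2 values reported for the 5 genes, 348 of 402 kept direction and side of the threshold over the alternatives, 20 passed newly and 34 changed sign; the causes were not tested. The count of 0 genes called became 1 (bam) in activated eggs under TMM and under quantile normalisation, 1 (bam) for mutant maturation under TMM, and 2 (otu and bam) in mature oocytes with only the libraries compared. With the replicate block within each stage it became 1 in immature oocytes, 1 in mature oocytes, 2 in activated eggs and 3 (Sxl, bam and sqd) for maturation in either genotype. That block changed no other call of the 5 genes between genotypes. With a replicate block over mature and activated libraries only it was 1 (bam) between genotypes in activated eggs and 0 for activation in either genotype. For the stage comparisons the within-stage block pairs no samples across stages and only takes a deviation shared by the genotypes out of the error. With libraries left out, the mutant maturation change ranged from 0.61 to 1.33 for bam, 0.30 to 3.36 for Sxl and 0.34 to 3.12 for sqd. Some calls changed in these fits, but the share of all records called in them is not given. Leaving out an immature replicate of both genotypes was an alternative chosen after seeing the data. The median of all records between genotypes in activated eggs was -0.16 as deposited, 0.03 under TMM and 0.04 under quantile normalisation.

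Signs turned, below the threshold, for otu in activated eggs (0.04 under TMM, 0.08 with the length trend removed), for ovo in mature oocytes (-0.11 under quantile normalisation, -0.04 with the length trend removed), for ovo in activated eggs (0.27) and mutant maturation (-0.08) with the length trend removed, and under quantile normalisation for sqd (-0.10) and osk (-0.04) in activated eggs. With libraries left out, genotype differences ranged from -1.88 to 1.18, -0.03 to 0.61 and -0.42 to 1.35 for Sxl in immature, mature and activated samples. They ranged from -1.66 to 1.11 (immature) and -0.75 to 1.05 (activated) for sqd, from -0.58 to 0.36 (immature) and -0.32 to 0.03 (activated) for otu, and from -0.38 to 0.50, -0.05 to 0.12 and -0.59 to 0.05 for ovo at the 3 stages. Wild type maturation ranged from -0.28 to 2.67 for Sxl and -0.23 to 2.36 for sqd. Without immature replicate 1 of both genotypes the immature difference of otu was 0.16, and without replicate 2 of both that of ovo was -0.11, the wild type maturation change -0.28 for Sxl and -0.23 for sqd, and the bam difference in the maturation change -0.03. The genotype difference of bam itself ranged from 0.37 to 1.09, 0.88 to 0.95 and 0.44 to 1.04 at the 3 stages and did not pass in these fits, and mutant maturation from 0.61 to 1.33. The genotype difference of bam ranged from -0.17 to 0.55 for the maturation change and -0.48 to 0.12 for the activation change. Of the values for partner and marker genes, 289 of 474 held, 183 fell short of the threshold, 1 passed newly and 1 changed sign.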
